A study of Homo sapiens with 6 samples.

Results

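The RAS-type GTPases described here are 9 listed genes, HRAS, NRAS, RRAS, RRAS2, MRAS, RIT1, RASD1, RALA and RALB, out of 60663 genes with values in a table of gene counts. They were picked by name, to see how each contributes to the RAS-type mRNA pool and whether relatives of HRAS are higher where HRAS transcripts are targeted. All 9 had enough counts to be tested. RNA was sequenced from 5637, an established human bladder cancer cell line, 48 h after transfection. The HRAS guide group (3 libraries) received dCas13b-FTO with a guide RNA against HRAS. The control guide group (3 libraries) received dCas13b-FTO with a control guide, so the fusion is shared by both groups. dCas13b is an RNA-guided RNA-binding protein without nuclease activity, and FTO is an enzyme that removes N6-methyladenosine (m6A), a modified base of mRNA. The column names of the counts carry FTO, while the sample titles name dCas13b alone. Both groups are transfections of the same line, and no label says that replicates are independent cultures, so p-values reflect the spread among these libraries only, which may be technical. In bulk RNA, fewer transfected cells and a smaller change per cell cannot be told apart.

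RAS GTPases are membrane-bound switches that are active with GTP and inactive with GDP. Exchange factors load them with GTP, and GTPase activators turn them off. HRAS and NRAS pass signals from growth factor receptors to RAF kinases and PI3-kinase. RRAS and RRAS2 act on integrin adhesion and PI3-kinase, MRAS forms a phosphatase complex with SHOC2 that switches RAF on, and RIT1 is a relative without the lipid anchor of the other members. RASD1 was first known as a gene induced by dexamethasone. RALA and RALB lie downstream, switched on by exchange factors that bind active RAS, and they act on vesicle delivery through the exocyst.

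The mRNAs of these genes differ strongly in base composition. Levels are therefore also given below after a correction for GC and length trends that differ between libraries. The correction acts on differences between libraries and does not adjust one gene against another for composition or length. In GENCODE 29 on the GRCh38 assembly, GC content over whole transcripts (median over the annotated transcripts of a gene) was 64.7% for HRAS, 64.8% for RRAS and 63.6% for RASD1, each above at least 93.3% of 19922 protein-coding genes. It was 38.4% for NRAS, 40.6% for RRAS2, 42.3% for RALA, 47.5% for RIT1, 51.3% for MRAS and 52.1% for RALB, against a median of 50.4% over protein-coding genes.

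The context in which m6A is often found was searched as GGACT in the principal annotated transcript, on the transcript's own strand. The 1151-base HRAS transcript held 2 matches, shown with the flanking bases and the match in capitals because HRAS is the transcript to which the demethylase was directed.
HRAS, coding, positions 500 to 504: aacgggtgaaGGACTcggatgacgt
HRAS, 3′ untranslated, positions 771 to 775: caggtgagggGGACTcccagggcgg
Positions count from the start of the transcript. This is 1.74 matches per kilobase, more than in 84.7% of 19588 protein-coding genes, of which 88.2% held at least 1 match. RRAS had 1.92 per kilobase, RASD1 1.72, RIT1 1.16, RALA 1.04, MRAS 0.881, RALB 0.853, NRAS 0.674 and RRAS2 0.660. The GC-rich members are thus also those with the densest matches. A match is a string of letters and not a measured m6A site, and the sequence bound by the guide is not used here.

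Library totals were 24968702 to 32283370 counts in HRAS guide libraries and 28374402 to 30502171 in control guide libraries. Summed epithelial and urothelial markers (12 genes) stood at 7446 to 8433 CPM with the HRAS guide and 7349 to 9522 CPM with the control guide. KRT5, KRT17 and TP63 were all abundant, as were EPCAM, CDH1, KRT7, KRT8 and KRT18. Over the 6 libraries PPARG stood at 59.4 to 66.5 CPM and GATA3 at 35.9 to 44.5 CPM. UPK2 did not exceed 1.57 CPM and UPK3A did not exceed 0.184 CPM. CPM are counts scaled to library size by TMM factors. Immune markers summed to 3.53 to 5.03 and 2.91 to 4.31 CPM and endothelial markers to 3.28 to 3.60 and 3.24 to 4.53 CPM (HRAS guide and control guide). Fibroblast and muscle markers summed to 141 to 186 and 154 to 211 CPM, nearly all of it COL1A1, and red cell markers to 0.205 to 0.369 and 0.381 to 0.463 CPM. The libraries differed in GC trend: across genes, the deviation of log2 CPM from the 6-library mean followed GC content with a Spearman's rho of 0.42, -0.67 and 0.11 in the HRAS guide libraries (replicates 1 to 3). The rho was -0.62, 0.76 and -0.33 in the control guide libraries. A correction for GC content and transcript length was therefore run beside the uncorrected test.

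HRAS was the most abundant of the 9 mRNAs and showed no detectable difference between the guides. The gene had 4970, 4888 and 5977 counts in HRAS guide replicates 1 to 3, and 4211, 6358 and 5115 counts in control guide replicates 1 to 3. Scaled to library size these were 200, 167 and 184 CPM with the HRAS guide, against 146, 230 and 169 CPM with the control guide. The control guide libraries held both the highest and the lowest value, and the HRAS guide libraries lay between them. The log2 fold change, HRAS guide minus control guide, was 0.01 ± 0.15 (SE; 95% interval -0.32 to 0.35; edgeR adjusted p = 1.00). This value depended on single libraries. Without control guide replicate 2 it was 0.22 (95% interval 0.04 to 0.40, edgeR adjusted p = 0.489). Without control guide replicate 1 it was -0.13 (95% interval -0.42 to 0.16, edgeR adjusted p = 0.901). With GC content and length corrected, the values were 187, 187 and 180 CPM with the HRAS guide, against 168, 187 and 175 CPM with the control guide, and the groups overlapped. The corrected difference of 0.07 ± 0.05 (95% interval -0.05 to 0.18, edgeR adjusted p = 0.954) corresponds to an interval of -3.23% to 13.3% for the change in HRAS mRNA. HRAS lies at chromosome 11, 532242 to 537287, minus strand (ENSG00000174775).

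**Figure D1:**
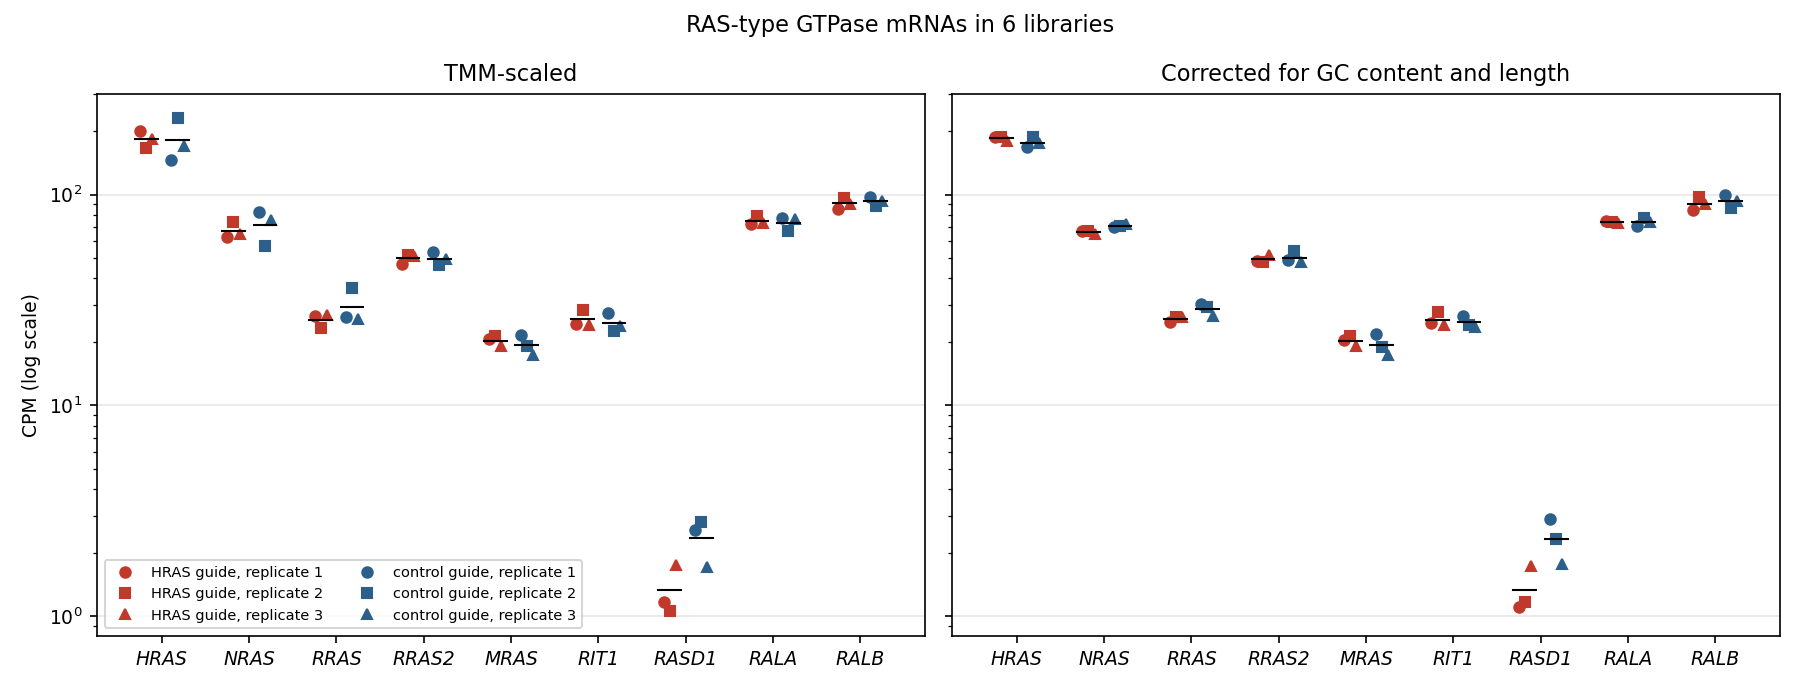
CPM (log axis) of the 9 mRNAs in each library, scaled by TMM (left) and corrected for GC content and length (right), with HRAS guide libraries in red, control guide libraries in blue and the group mean as a bar. HRAS ran from 146 to 230 CPM before the correction and from 168 to 187 CPM after it, and RASD1 stayed below 3 CPM throughout.

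HRAS was the largest component of the pool in every library. Its share of their summed counts was 37.0%, 30.8% and 34.3% in the HRAS guide libraries, against 27.3%, 40.4% and 31.8% in the control guide libraries. The means were 34.0% ± 3.11 and 33.2% ± 6.69 (SD, n = 3 each), so the difference of 0.870 percentage points was smaller than either SD. A design of 3 against 3 libraries cannot go below an exact permutation p of 0.10, and shares were therefore given without a test. RALB followed with 16.8% ± 0.946 and 17.1% ± 1.48 (HRAS guide and control guide, SD, n = 3 each), RALA with 13.9% ± 0.603 and 13.5% ± 1.49, and NRAS with 12.5% ± 1.10 and 13.2% ± 2.83. RRAS2 took 9.25% ± 0.499 and 9.13% ± 0.927, RRAS 4.74% ± 0.387 and 5.36% ± 0.844, RIT1 4.76% ± 0.427 and 4.53% ± 0.589, and MRAS 3.77% ± 0.171 and 3.54% ± 0.416. RASD1 took 0.246% ± 0.0712 with the HRAS guide and 0.431% ± 0.0934 with the control guide. In no member did the HRAS guide and control guide shares of counts separate completely. The RASD1 share did so per kilobase of merged exons, where it was 0.292% to 0.471% with the HRAS guide and 0.475% to 0.726% with the control guide, and on the other per-kilobase scales. With corrected CPM the HRAS share was 35.1%, 34.1% and 33.9% in HRAS guide libraries, against 31.1%, 34.0% and 32.9% in control guide libraries. It overlapped through HRAS guide replicate 3 and control guide replicate 2. The corrected NRAS share was 12.4% ± 0.210 with the HRAS guide and 13.2% ± 0.369 with the control guide (SD, n = 3 each). The corrected RRAS share was 4.78% ± 0.164 and 5.31% ± 0.316, and the corrected RASD1 share 0.249% ± 0.0665 and 0.429% ± 0.102. The shares of these 3 genes were lower in each HRAS guide library than in any control guide library, and those of the other members overlapped. In corrected CPM, 6.28% of 19489 genes lay lower in each HRAS guide library than in any control guide library. Shares of the same pool depend on each other, and these separations were not tested.

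**Figure D2:**
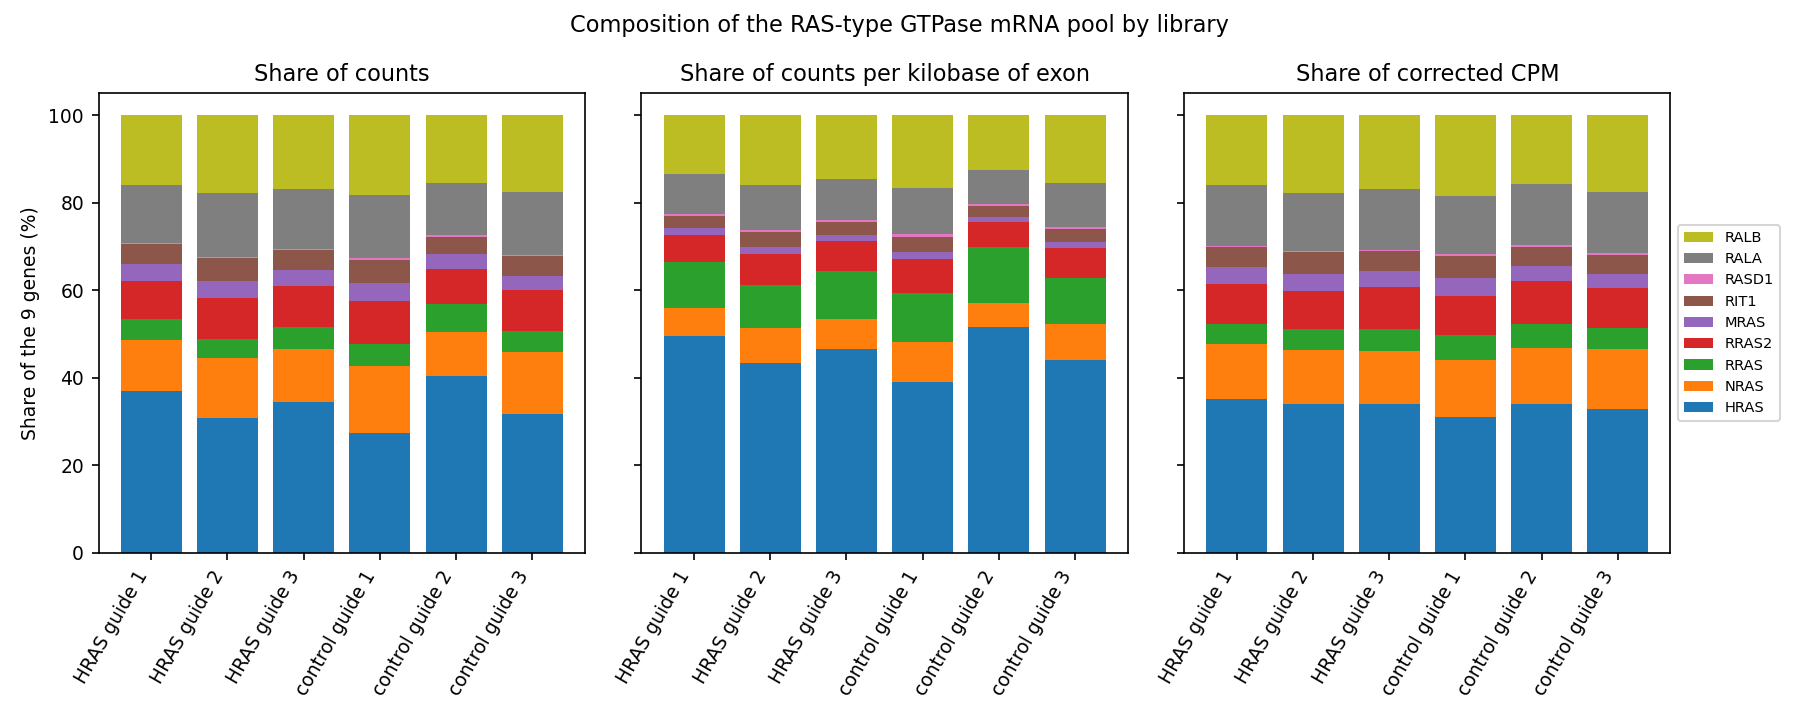
Stacked shares (%) of the 9 mRNAs in each library, HRAS guide libraries on the left of each panel, as counts, as counts per kilobase of merged exons and as GC and length corrected CPM. The HRAS block ran from 27.3% to 40.4% of counts over the 6 libraries and from 31.1% to 35.1% of corrected CPM.

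Counts depend on transcript length, so levels between genes were compared per kilobase. Per kilobase of merged exons, HRAS stood at 99.0 ± 8.91 CPM with the HRAS guide and 98.0 ± 23.6 CPM with the control guide (SD, n = 3 each). It was the highest member in every library, at 2.35 to 3.99 times the next, which was RALB or RRAS. HRAS exceeded NRAS by 4.24 to 9.67 times on this scale. The principal transcripts have 1151 bases for HRAS and 4449 bases for NRAS. RALB stood at 31.1 ± 1.81 and 31.9 ± 1.67 CPM per kilobase, RRAS at 22.0 ± 1.68 and 25.3 ± 5.03, and RALA at 20.4 ± 0.973 and 20.1 ± 1.49 (HRAS guide and control guide). RALB and RRAS overlapped in the control guide libraries but not in the HRAS guide libraries, where RALB was higher. RRAS and RALA overlapped in the HRAS guide libraries but not in the control guide libraries, where RRAS was higher. NRAS (15.1 ± 1.39 and 16.1 ± 2.95) and RRAS2 (14.4 ± 0.742 and 14.4 ± 1.01) overlapped in both groups. RIT1 (6.55 ± 0.621 and 6.28 ± 0.643), MRAS (3.19 ± 0.168 and 3.03 ± 0.328) and RASD1 (0.758 ± 0.213 and 1.35 ± 0.322) followed in that order in every library. The order below HRAS depended on the length used. Per kilobase of the median annotated transcript, RALB and RALA came next, at 104 ± 6.03 and 97.5 ± 4.64 CPM with the HRAS guide, and HRAS exceeded the next member by 1.46 to 2.56 times. Per kilobase of the principal transcript it exceeded it by 3.04 to 5.33 times.

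**Figure D3:**
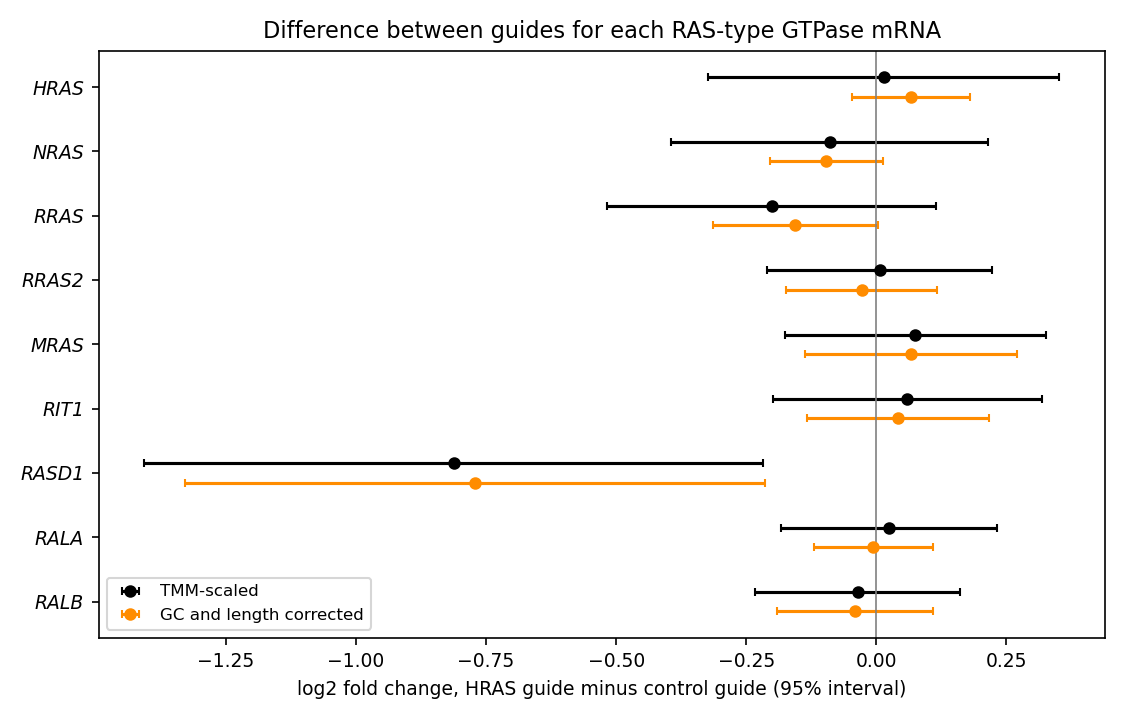
Log2 fold change, HRAS guide minus control guide, of each mRNA with its 95% interval, before (black) and after (orange) the GC and length correction. Intervals for 8 members include 0 on both scales, the RASD1 interval lies below 0 on both (-1.41 to -0.22 before the correction), and no member passed after adjustment over all genes.

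By the test over all genes, 0 of the 9 members passed an adjusted p of 0.05, where 0.0101% of 19836 genes did. DESeq2 and limma-voom also called 0 members. At an unadjusted p under 0.05 there was 1 member, RASD1, where 3.34% of all genes stood below it. The log2 fold change was above 0 in 5 members and below it in 4, and its median was 0.0061, beside -0.0014 over all genes tested. No member had all HRAS guide libraries above or all below the control guide libraries, where 8.81% of all genes did. After the correction 0 members passed, where 0.200% of 19489 genes did, and RASD1 was again the only member below an unadjusted 0.05, where 5.80% of genes were. The corrected median was -0.028 over members and -0.00015 over all genes. NRAS, RRAS and RASD1 then had all HRAS guide libraries below all control guide libraries, where 6.28% of genes did, and 0 members had them all above, where 5.98% did. The standard error was smaller after the correction for each of the 9 members. The within-group SD of log2 CPM nevertheless rose for MRAS (0.123 to 0.130) and RALB (0.0798 to 0.101) and fell for the other members.

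NRAS, the closest relative of HRAS in the list, was not higher with the HRAS guide. It had 62.9, 74.4 and 64.8 CPM in HRAS guide libraries, against 82.6, 57.1 and 75.3 CPM in control guide libraries. As for HRAS, the extremes were both control guide libraries, but in reverse: control guide replicate 1 was lowest for HRAS and highest for NRAS, and control guide replicate 2 the opposite. The order of the 6 libraries by NRAS was the reverse of that by HRAS except for the places of HRAS guide replicate 2 and control guide replicate 3. The log2 fold change of NRAS was -0.09 ± 0.14 (edgeR adjusted p = 1.00). Without control guide replicate 2 it was -0.23 (95% interval -0.41 to -0.04, edgeR adjusted p = 0.489), and without control guide replicate 1 it was 0.021. After the correction NRAS stood at 67.4, 67.3 and 65.3 CPM with the HRAS guide and 70.2, 71.2 and 72.4 CPM with the control guide. These groups did not overlap, and the order was no longer the reverse of that by HRAS: control guide replicate 2 was the highest for HRAS and next to the highest for NRAS. The corrected difference was -0.10 ± 0.05, with a 95% interval of -0.20 to 0.01 and an edgeR adjusted p of 0.876. As a percentage, that interval runs from -13.2% to 0.883%.

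The R-RAS genes were not higher with the HRAS guide beyond the spread either. RRAS had 26.4, 23.3 and 26.9 CPM with the HRAS guide, against 26.3, 36.1 and 25.7 CPM with the control guide. Control guide replicate 2, the library with the strongest positive GC trend, stood apart and the others overlapped. The log2 fold change of RRAS was -0.20 ± 0.14 (edgeR adjusted p = 1.00), and without control guide replicate 2 it was -0.03. Corrected, RRAS stood at 24.7, 26.1 and 26.4 CPM against 30.3, 29.3 and 26.5 CPM, which separated by a narrow margin at -0.16 ± 0.07 (edgeR adjusted p = 0.865). RRAS2 was even across libraries, at 46.9, 51.5 and 51.2 CPM with the HRAS guide and 53.4, 46.4 and 49.2 CPM with the control guide. Its log2 fold change was 0.0061 ± 0.10, and -0.03 ± 0.07 after the correction. MRAS had 20.6, 21.2 and 19.1 CPM with the HRAS guide, against 21.5, 19.1 and 17.3 CPM with the control guide, a difference of 0.07 ± 0.11 (95% interval -0.18 to 0.33). RIT1 had 24.4, 28.5 and 24.1 CPM against 27.4, 22.6 and 23.9 CPM, a difference of 0.06 ± 0.12 (95% interval -0.20 to 0.32). The groups overlapped for RRAS2, MRAS and RIT1 on both scales, and the edgeR adjusted p of each was 0.987 or more on both.

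RASD1 showed the widest difference of the 9 and the fewest counts. It had 29, 31 and 57 counts in HRAS guide libraries, against 74, 77 and 52 in control guide libraries. These were 1.17, 1.06 and 1.75 CPM, against 2.56, 2.79 and 1.72 CPM, so the groups overlapped only through replicate 3 of each. Counting error alone gives exact Poisson intervals of 19.4 to 41.6 for the 29 counts and 43.2 to 73.9 for the 57 counts of HRAS guide replicates 1 and 3, against 60.8 to 96.2 for the 77 counts and 38.8 to 68.2 for the 52 counts of control guide replicates 2 and 3. The intervals of replicate 3 overlapped, and none of them covers the spread between libraries. The log2 fold change was -0.81 ± 0.27, with a 95% interval of -1.41 to -0.22, an unadjusted p of 0.0123 and an edgeR adjusted p of 1.00. Without HRAS guide replicate 3 it was -1.08 and without HRAS guide replicate 2 it was -0.67, the ends of the range with each library left out. Corrected, it was -0.77 ± 0.25 (edgeR adjusted p = 0.655). Libraries were also divided by whether their GC trend was negative (HRAS guide replicate 2, control guide replicates 1 and 3) or positive (HRAS guide replicates 1 and 3, control guide replicate 2). Each set has only 1 library of a group, so differences within the sets are values without a test. For RASD1 they were -0.99 in the negative and -0.96 in the positive set on the log2 scale, and -0.94 and -0.75 after the correction.

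The RAL genes, which act downstream of active RAS, varied little. RALA had 72.6, 79.0 and 73.0 CPM with the HRAS guide, against 77.1, 67.3 and 76.4 CPM with the control guide, a log2 fold change of 0.02 ± 0.09. RALB had 85.8, 96.3 and 90.1 CPM, against 97.7, 87.9 and 93.5 CPM, a log2 fold change of -0.04 ± 0.09. The groups overlapped for both genes. Corrected, the RALA interval of -0.12 to 0.11 corresponds to -8.02% to 7.89%, and the RALB interval of -0.19 to 0.11 to -12.4% to 7.79% (edgeR adjusted p = 0.998 and 0.990).

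As a sum, the 8 relatives of HRAS stood at 341, 375 and 351 CPM in HRAS guide libraries, against 388, 339 and 363 CPM in control guide libraries. The means were 356 ± 17.7 and 364 ± 24.6 CPM (SD, n = 3 each), a log2 ratio of -0.03, and the groups overlapped. Corrected sums were 347, 362 and 351 CPM, against 371, 364 and 357 CPM, a log2 ratio of -0.04. The relatives were thus not higher as a pool with the HRAS guide on either scale. The ratio of HRAS to this sum was 0.587, 0.445 and 0.523 with the HRAS guide, against 0.375, 0.679 and 0.466 with the control guide. Corrected, it was 0.540, 0.517 and 0.514 with the HRAS guide and 0.451, 0.515 and 0.489 with the control guide. Only HRAS guide replicate 3 and control guide replicate 2 crossed there. Within the negative GC set the uncorrected log2 differences were 0.09 for HRAS, -0.08 for NRAS and -0.16 for RRAS. Within the positive set they were -0.27 for HRAS, 0.16 for NRAS and -0.44 for RRAS. The only control guide library of the positive set, replicate 2, has the strongest GC trend, so GC trends still differ within that set. Corrected, NRAS was at -0.08 and -0.10 in these sets and RRAS at -0.12 and -0.20, while HRAS was at 0.13 and -0.03.

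Across the 9 members, Spearman's rho between GC content and a member's log2 deviation from its own mean was 0.20, -0.68 and 0.38 in the HRAS guide libraries (replicates 1 to 3), against -0.45, 0.87 and -0.57 in the control guide libraries. Each value has the sign of that library's trend over all genes given above. The 9 points of a library share its depth and scaling, and no test was made. The correction narrowed HRAS from 1.58 to 1.12 times between its highest and lowest library, NRAS from 1.45 to 1.11 times and RRAS from 1.55 to 1.22 times. RIT1 narrowed from 1.26 to 1.17 times and RALA from 1.17 to 1.09 times. RRAS2 (1.15 and 1.14 times before and after) and RASD1 (2.64 and 2.61 times) hardly moved, and MRAS (1.24 and 1.26 times) and RALB (1.14 and 1.17 times) became slightly wider. By the median GC content given above, RRAS2 and RASD1 lie towards the ends of the range and RIT1 nearer its middle. Over principal transcripts, GC content was 48.5% for RRAS2 and 40.2% for RIT1. RASD1 had only 29 to 77 counts a library. Whether the change in spread followed GC content was not tested.

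Among 4646 genes with a mean of at least 50 CPM, those whose log2 CPM most resembled HRAS over the 6 libraries were SLC3A2, HAX1 and RPLP0, each with a Pearson r of 0.999. Their GC contents were 55.2%, 53.2% and 54.1%. After the correction, among 4633 genes, the most similar were RXRA (r = 0.985), SNHG1 (0.984) and IFNGR1 (0.981), whose GC contents were 62.6%, 44.5% and 39.7%. The corrected and uncorrected lists shared no gene. These genes were picked for having the highest r among 4646 or 4633 genes over only 6 libraries, so high values were built in. Shared regulation with HRAS was not tested.

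The regulators and partners of these GTPases did not pass the test either. Of 92 genes in 5 lists, 81 were tested, of which 31 lay above 0 and 50 below it in log2 fold change, and 0 passed before or after the correction. Among 17 tested GTPases of the RAS subfamily outside the 9 members, 4 were positive and 13 negative (median -0.03). RASL10A (-0.85 ± 0.41, below 1 CPM) and RASL11A (0.33 ± 0.23) had the smallest p. Of 17 exchange factors 5 were positive and 12 negative (median -0.06), with RASGRP4 (0.98 ± 0.39, at 0.290 to 1.02 CPM over all libraries) and RALGDS, an exchange factor for RAL proteins (-0.10 ± 0.12). Of 12 tested GTPase activators 5 were positive and 7 negative (median -0.02). RASA4, which has a near-identical copy that can share its reads, stood at 0.39 ± 0.17. Membrane processing and turnover genes were even at 9 positive and 9 negative (median 0.0031), with LGALS1, a galectin that binds HRAS at the membrane (-0.17 ± 0.14), and ICMT, which methylates the processed C terminus of RAS proteins (0.07 ± 0.08). Of 17 effectors 8 were positive and 9 negative (median -0.02), with RASSF1 (0.15 ± 0.12) and RIN1 (-0.20 ± 0.20). Over all genes 50.5% of log2 fold changes were negative.

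No exon of the 9 members overlaps an exon of another annotated gene in GENCODE 29. The annotation used for counting is not known, so this cannot show whether the counting mixed them with a neighbour. The annotated pseudogenes of RRAS2, RRAS2P1 and RRAS2P2, had 0 to 1 count in any library.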

How the data were processed

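The authors deposited raw counts, whole numbers for each gene, in a table with a column per library. Of its 60664 rows, 1 had no values and was left out. HISAT2, StringTie, DESeq2 and hg38 are named without roles in the submitters' processing notes; no source used here gives the counting tool, the annotation release or the strandedness. Symbols came from a gene name table, in which 60462 of the 60663 identifiers with values had a symbol. Lengths, GC content and sequences came from GENCODE 29 on GRCh38, the assembly also called hg38.

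Genes were filtered with filterByExpr, scaled by TMM and compared on group alone in edgeR 4.0.16 (R 4.3.3) by its quasi-likelihood test, two-sided, with Benjamini-Hochberg adjustment over all genes tested and a threshold of 0.05. SEs were recovered from the F statistic and intervals are at 95%. For the correction, deviations of log2 CPM (prior count 2) from the 6-library mean were fitted in each library by robust regression on splines of GC content (5 degrees of freedom) and of log10 median transcript length (4), and the fitted values entered edgeR as offsets. Scripts were tested on simulated data with known changes. No pair of libraries agreed within sampling noise.

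The members, companion lists, correction and alternatives (DESeq2 1.42.0, limma-voom with limma 3.58.1, other scalings, filters, a replicate block and left-out libraries) were chosen with earlier results of these data known. All 9 members were named whatever their values. From each companion list the genes past the threshold, or the 2 of smallest p, were named, and the 3 genes most like HRAS on each scale. A GTPase activator that this rule picks is not reported here. Counts of genes from PCR reads are not independent molecules, so Poisson intervals cover counting error only.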

Additional observations from a re-analysis of the deposited data

How the results depend on the processing

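In the settings run, 0 of the 9 members passed the threshold, including every fit that left out a library. The number of genes called over the whole table was 2 in the main test. It was 39 after the GC and length correction, 6 with the correction and the replicate block, 81 with the GC-sign set covariate and 1 with the replicate block alone. It was 28 with DESeq2, 57 without a filter, and 1 each with limma-voom, DESeq2-type size factors and a filter of 1 CPM in 3 libraries. Leaving out each library gave 1 to 24 in the main test: 24 without control guide replicate 2, 4 without control guide replicate 1 and 1 with each other library left out in turn. After the correction it gave 7 to 131: 131 without control guide replicate 2, 36 without control guide replicate 1 and 7 to 17 with each other library left out in turn. RASD1 and RRAS were negative in all 22 alternatives, which reuse the same libraries and are not independent. With the set covariate RRAS reached -0.30 (edgeR adjusted p = 0.215) and RASD1 -0.96 (edgeR adjusted p = 0.168). That covariate does not even out the GC trend within a set. In the positive set, the rho was 0.76 in control guide replicate 2, against 0.42 and 0.11 in HRAS guide replicates 1 and 3. Without control guide replicate 2 RRAS was at -0.03. Differences near 0 changed sign. With the set covariate HRAS was at -0.091, NRAS at 0.036 and RALB at 0.0058. The correction turned RALA to -0.0055 and RRAS2 to -0.028, and with the replicate block added they were at -0.0052 and -0.028. With each library left out, with or without the correction, HRAS ranged from -0.13 to 0.22, NRAS from -0.23 to 0.021, RRAS2 from -0.065 to 0.057, MRAS from -0.0086 to 0.16, RIT1 from -0.022 to 0.14, RALA from -0.036 to 0.056 and RALB from -0.094 to 0.010. The cause of these changes was not tested. The HRAS share difference was 0.767 to 1.62 percentage points under the 3 length scales, within the spread of 5.21 points between libraries of a group in shares of counts. It was 1.72 points with corrected CPM, where the SDs were 0.613 (HRAS guide) and 1.46 (control guide) and the groups overlapped. In shares of counts it ran from -2.07 to 4.51 points with each library left out. The summed relatives ranged from -0.08 to 0.02. Same-numbered libraries did not deviate together: the correlations of their deviations from the group means were -0.19, -0.29 and -0.06, so the numbers were not taken to pair them. Fits with each library left out of the corrected table, and shares per kilobase of the principal transcript, were added after seeing the data. At 29 to 77 counts a library, the depth limits what can be said of RASD1.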
